A study of Saccharomyces cerevisiae with 2 samples.

Results

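The genes described here encode the enzymes of the tricarboxylic acid (TCA) cycle and the nuclear-encoded part of the respiratory chain of budding yeast. A total of 47 genes were followed, listed by name with earlier results of these data known. All 47 were found among the 5995 mRNA rows of the deposited table of 6420 features. They comprise 12 genes of the TCA cycle, 4 subunits of succinate dehydrogenase (complex II), 3 NADH dehydrogenases, 9 subunits of the cytochrome bc1 complex (complex III), 7 subunits of cytochrome c oxidase (complex IV) and 12 subunits of ATP synthase. The RNA came from wild-type (WT) cells and from cdc55Δ cells, which lack Cdc55p, a regulatory subunit of protein phosphatase 2A. Both are in BY4741, a haploid laboratory strain descended from S288C whose deletions in nutritional marker genes are shared by both cultures. Static cultures in YPD20, a rich medium with a high glucose content, were sampled after 6 h at 30 °C, and 1 library was made per strain, so no difference below has a replicate check. The sources used here do not say whether the mutant culture came from a single clone.

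The TCA cycle oxidizes acetyl-CoA in the mitochondrial matrix and hands the electrons to NADH and, at succinate dehydrogenase, to ubiquinone. Yeast has no proton-pumping complex I, and single-protein NADH dehydrogenases feed ubiquinone in its place, before complexes III and IV pass the electrons to oxygen and ATP synthase uses the proton gradient. Glucose represses many of these genes, the Hap2/3/4/5p complex activates a large part of them, and Rtg1p and Rtg3p, the factors of the retrograde pathway, drive CIT2 and, in cells with weak respiration, the genes of the early steps of the cycle.

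Library totals were 33233285 counts for WT and 30133454 counts for cdc55Δ. CDC55 had 2614 counts in WT against 1 in cdc55Δ, at least 775-fold lower against a floor of 3 counts, as the labels say. Log2 fold changes are of cdc55Δ over WT, from counts scaled with TMM in edgeR, a prior of 0.5 being added first. An interval beside one is a 95% Clopper-Pearson interval, taken on the fraction of both libraries' reads of that gene that came from cdc55Δ. It covers counting error only, and PCR copies are not independent molecules, so the true error is wider. A feature was compared where its mean over both libraries was at least 50 normalized counts, which 5705 features and 46 of the 47 genes reached. NDE2, with a mean of 45.5, was left out of the counts below. The median over all compared features was 0.00, and their middle 95% ran from -0.63 to 0.89. Each library averages over a culture, so fewer cells that express a gene and less RNA per cell cannot be told apart.

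Most of the 47 genes had slightly higher scaled counts in cdc55Δ than in WT, and few moved far. Their median log2 fold change, NDE2 included, was 0.21, and 38 of the 46 compared genes were above 0, beside 50.4% of all compared features. Past 1.5-fold, 3 genes rose, SDH1, LSC2 and SDH2, and 1 gene fell, IDH1. Across all compared features 5.17% were that much higher and 2.96% that much lower, so the number of members past 1.5-fold was close to the background in both directions. None of the 46 reached a 2-fold difference either way, a fold that 1.91% of the features exceeded upward and 1.03% downward. The counting interval lay wholly above 0 for 35 members and wholly below 0 for 5, beside 31.5% and 28.4% of the features. The small members, 21 genes under 600 bases, had a median of 0.21, and the 26 longer ones a median of 0.20. Together the 47 genes held 0.404% of the WT counts (95% Clopper-Pearson interval 0.402 to 0.406) and 0.423% of the cdc55Δ counts (0.421 to 0.426).

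**Figure D1:**
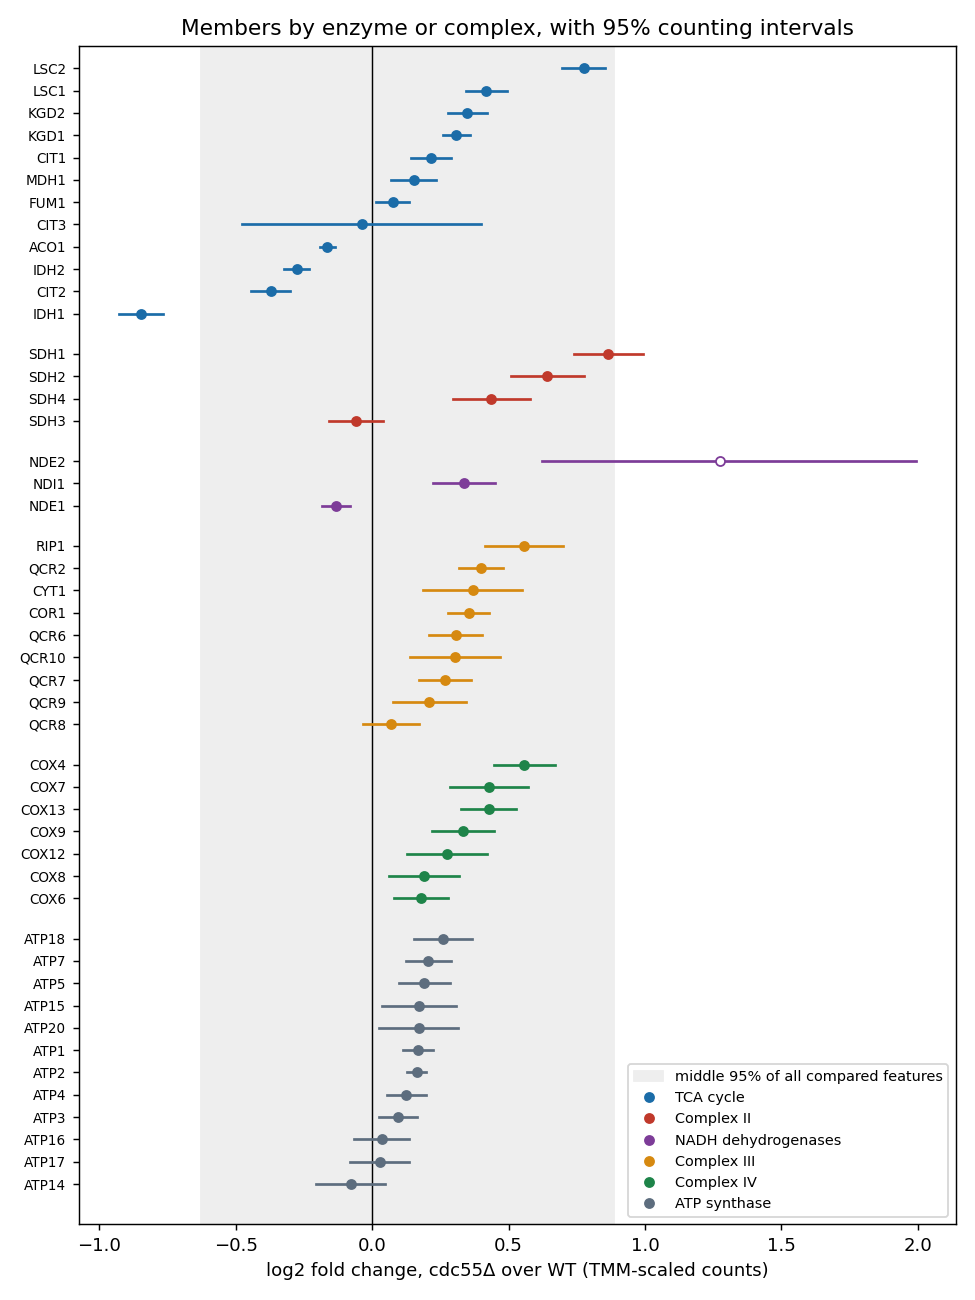
Log2 fold change of cdc55Δ over WT for each of the 47 genes, grouped by enzyme or complex; points are values from 1 library per strain and bars are 95% counting intervals. The grey band holds the middle 95% of all compared features, from -0.63 to 0.89, and the open circle marks NDE2, which is below the count minimum. IDH1 lies below the band, while the 12 ATP synthase subunits sit within a range of 0.34.

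Within the mitochondrial cycle ACO1, IDH1 and IDH2 were lower in cdc55Δ, while CIT1 was higher. ACO1, the aconitase, had the most counts of the 47 genes, 23516 in WT and 18662 in cdc55Δ, giving a log2 fold change of -0.17 (-0.19 to -0.14). IDH1 and IDH2 encode the subunits of the mitochondrial NAD-dependent isocitrate dehydrogenase, a rate-controlling enzyme of the cycle. IDH1 (YNL037C, minus strand of chromosome XIV from 557920 to 559002 in the R64 assembly) had 3788 counts in WT against 1872 in cdc55Δ. Its log2 fold change of -0.85 (-0.93 to -0.77), 1.80-fold lower, was the lowest of the 47 and stood at rank 81 from the bottom among the 5705 features. IDH2 (YOR136W, plus strand of chromosome XV from 580250 to 581359) had 9350 and 6866 counts and a log2 fold change of -0.28 (-0.32 to -0.23). The subunits of this one enzyme thus differed in their change by -0.57 (-0.66 to -0.48) on the log2 scale, beyond counting error and independent of how the libraries are scaled. Per length, IDH1 was at 0.415 of the IDH2 level in WT and at 0.279 of it in cdc55Δ, by the deposited RPKM (counts per kilobase of the listed length, scaled to the library total).

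Citrate synthase, which opens the cycle, is encoded by 3 genes with differing values. CIT1, the main mitochondrial enzyme, had 2969 counts in WT against 3068 in cdc55Δ, giving a log2 fold change of 0.22 (0.14 to 0.29). CIT2 (YCR005C, minus strand of chromosome III from 120946 to 122328), the peroxisomal enzyme of the glyoxylate cycle and the classical target of Rtg1/3p, had 3742 and 2572 counts and a log2 fold change of -0.37 (-0.45 to -0.30). In WT the RPKM of CIT2 was 1.31 times that of CIT1, and in cdc55Δ it was 0.873 times, so the order of the pair was turned around between the libraries. CIT3, a minor mitochondrial citrate and methylcitrate synthase, had only 97 and 84 counts, and its log2 fold change of -0.04 (-0.48 to 0.40) could not be told from 0 at this depth. These paralogs share no stretch of 100 identical bases with each other or with any other site in the genome, and the same holds for the rest of the 47 genes.

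The later steps, from 2-oxoglutarate dehydrogenase to malate dehydrogenase and leaving complex II aside, were higher in cdc55Δ in all 6 genes. KGD1 and KGD2, the first components of the 2-oxoglutarate dehydrogenase complex, had 6498 and 7162 counts and 2999 and 3396 counts in WT and cdc55Δ, giving log2 fold changes of 0.31 (0.26 to 0.36) and 0.35 (0.28 to 0.42). Between KGD2 and KGD1 the difference of 0.04 (-0.05 to 0.12) lay within counting error. LSC1 and LSC2 encode the alpha and beta subunits of succinyl-CoA ligase. LSC1 had 2569 counts in WT against 3056 in cdc55Δ, giving a log2 fold change of 0.42 (0.34 to 0.50). LSC2 (YGR244C, minus strand of chromosome VII from 978036 to 979319) rose from 2235 to 3403 counts, and its log2 fold change of 0.77 (0.70 to 0.85) was exceeded among the compared members by SDH1 alone. LSC2 exceeded LSC1 in its change by 0.36 (0.25 to 0.46). FUM1, the fumarase, had 4645 and 4352 counts, and MDH1, the mitochondrial malate dehydrogenase, had 2461 and 2433. They had the smallest positive log2 fold changes of the cycle, 0.07 (0.01 to 0.13) and 0.15 (0.07 to 0.23). Over the 12 cycle genes the median was 0.11, with 7 above 0 and 5 below, and the sum of their counts took 0.195% of the WT library and 0.189% of the cdc55Δ library.

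Complex II, which belongs to the cycle and to the respiratory chain, held both of the other members that rose past 1.5-fold. SDH1 (YKL148C, minus strand of chromosome XI from 169207 to 171129), the flavoprotein that oxidizes succinate, rose from 823 to 1334 counts, giving a log2 fold change of 0.86 (0.74 to 0.99), 1.82-fold and rank 149 of 5705 from the top. SDH2 (YLL041C, minus strand of chromosome XII from 53131 to 53931), the iron-sulfur subunit, rose from 796 to 1105 counts, giving a log2 fold change of 0.64 (0.51 to 0.77). SDH4, a membrane anchor, had 763 and 919 counts and a log2 fold change of 0.44 (0.30 to 0.58). SDH3, the other anchor and also a part of the TIM22 import machinery of the inner membrane, had 1855 and 1584 counts, with a log2 fold change of -0.06 (-0.16 to 0.04). SDH1 and SDH3 therefore differed in their change by 0.92 (0.77 to 1.08), more than the subunits of any other enzyme compared here in this way (10 pairs in all, chosen after the values were seen). SDH1 was also the subunit with the lowest level per length, with RPKM values of 12.9 for WT and 23.0 for cdc55Δ, against 93.5 and 88.1 for SDH3. SDH1 exceeded SDH2 in its change by 0.22 (0.04 to 0.41). The median over the 4 subunits was 0.54.

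Windows from 250 bases before to 50 bases after the annotated start, which is the start codon in all 47 genes, were read from the R64 genome of RefSeq. They are shown for the 4 genes past 1.5-fold, and for CIT2 beside them because it is the textbook target of the retrograde pathway. Capitals mark CCAAT (the core of the Hap2/3/4/5p site), AGGGG (the stress response element of Msn2/4p) and GTCAC (the R box of Rtg1/3p), each on either strand. The windows lie at chrXIV:558953-559252 (IDH1), chrIII:122279-122578 (CIT2), chrVII:979270-979569 (LSC2), chrXI:171080-171379 (SDH1) and chrXII:53882-54181 (SDH2), all on the minus strand.
IDH1: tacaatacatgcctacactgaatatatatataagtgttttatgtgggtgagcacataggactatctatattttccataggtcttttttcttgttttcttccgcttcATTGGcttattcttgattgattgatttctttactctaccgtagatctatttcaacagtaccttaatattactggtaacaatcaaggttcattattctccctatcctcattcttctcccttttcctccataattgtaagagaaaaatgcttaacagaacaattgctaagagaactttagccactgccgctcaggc
CIT2: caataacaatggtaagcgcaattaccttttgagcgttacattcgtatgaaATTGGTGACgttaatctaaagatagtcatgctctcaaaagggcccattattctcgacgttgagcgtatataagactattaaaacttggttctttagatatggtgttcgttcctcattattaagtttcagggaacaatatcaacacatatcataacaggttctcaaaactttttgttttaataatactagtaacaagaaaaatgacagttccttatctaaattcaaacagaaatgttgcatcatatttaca
LSC2: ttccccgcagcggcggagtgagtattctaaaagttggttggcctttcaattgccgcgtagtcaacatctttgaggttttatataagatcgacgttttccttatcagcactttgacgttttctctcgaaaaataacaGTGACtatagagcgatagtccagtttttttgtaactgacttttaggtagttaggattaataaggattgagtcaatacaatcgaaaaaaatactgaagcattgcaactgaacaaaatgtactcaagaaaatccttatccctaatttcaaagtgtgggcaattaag
SDH1: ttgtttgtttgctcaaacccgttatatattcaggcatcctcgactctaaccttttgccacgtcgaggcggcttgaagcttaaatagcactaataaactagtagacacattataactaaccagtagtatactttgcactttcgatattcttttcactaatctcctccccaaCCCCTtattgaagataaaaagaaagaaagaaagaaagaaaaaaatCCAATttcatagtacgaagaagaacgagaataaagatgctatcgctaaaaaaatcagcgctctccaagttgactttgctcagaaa
SDH2: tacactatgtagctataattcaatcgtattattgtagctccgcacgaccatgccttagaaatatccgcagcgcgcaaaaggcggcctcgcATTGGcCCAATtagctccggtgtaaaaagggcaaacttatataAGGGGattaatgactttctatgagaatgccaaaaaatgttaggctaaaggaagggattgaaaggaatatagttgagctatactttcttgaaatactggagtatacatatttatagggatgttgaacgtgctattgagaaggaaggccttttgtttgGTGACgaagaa
In CIT2 the CCAAT and GTCAC matches share 1 base, and the window reaches into the neighbouring gene YCR006C. SDH2 holds 2 CCAAT matches in opposite orientation, at -160 and -154 from the start, and an AGGGG at -117. Its GTCAC match lies 39 bases after the start, within the coding sequence, and such matches are included in the shares below. IDH1 holds 1 CCAAT at -144 and neither of the other motifs.

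Over all 47 members, 37 windows (78.7%) held CCAAT, beside 43.3% of the 6001 windows of nuclear protein-coding genes. The share was 11 of 12 in ATP synthase, 6 of 7 in complex IV and 7 of 9 in complex III. It was 4 of 4 in complex II, 2 of 3 in the NADH dehydrogenases and 7 of 12 in the cycle. AGGGG was found in 20 of the 47 (42.6%), beside 21.6% of all windows, and GTCAC in 18 (38.3%), beside 26.4%. Within the members, the median log2 fold change was 0.18 for the 37 genes with CCAAT and 0.36 for those without it, and 0.32 for the 20 genes with AGGGG and 0.17 for those without. For GTCAC the members' medians were 0.31 with it and 0.19 without it. Over all compared genes the medians with and without the motif were 0.01 and 0.00 for CCAAT, 0.11 and -0.02 for AGGGG, and 0.00 and 0.01 for GTCAC. Within the TCA cycle the 7 genes with CCAAT had a median of -0.17, and the 5 without it 0.35. Of the 7, IDH1, IDH2, ACO1, CIT2 and CIT3 had values below 0, and FUM1 and MDH1 values above 0. The medians with and without CCAAT were 0.16 and 0.17 in ATP synthase, 0.30 and 0.36 in complex III and 0.30 and 0.56 in complex IV, and in complex II all 4 genes held it. Of IDH1, IDH2, ACO1 and CIT2, the last alone held GTCAC. A match of 5 bases is a description of the sequence and not a bound site. Sequence outside the windows was not read, so a gene without a match may hold one further upstream.

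Of the NADH dehydrogenases, NDI1 and NDE1 had opposite signs. NDI1, which faces the matrix and takes electrons from the NADH of the TCA cycle, had 1212 counts in WT against 1362 in cdc55Δ, giving a log2 fold change of 0.34 (0.22 to 0.45). NDE1, the main external enzyme for cytosolic NADH, had 6878 and 5579 counts, giving a log2 fold change of -0.13 (-0.18 to -0.08). The difference between them was 0.47 (0.35 to 0.59), although NDE1 stayed the more abundant per length, at RPKM values of 123 and 110.0 against 23.7 and 29.3 for NDI1. NDE2, the second external enzyme, was listed with 28 counts in WT and 61 in cdc55Δ, giving a log2 fold change of 1.28 with a wide interval from 0.62 to 1.99.

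Complex III was higher in cdc55Δ in all 9 subunits, with a median log2 fold change of 0.31, although none reached 1.5-fold. The catalytic subunits RIP1 and CYT1 had the fewest reads per length. RIP1, the Rieske iron-sulfur protein, had 719 counts in WT against 941 in cdc55Δ, and the resulting log2 fold change of 0.56 (0.42 to 0.70) was the highest of the complex. CYT1, cytochrome c1, had 469 and 539 counts and a log2 fold change of 0.37 (0.19 to 0.55). The core proteins COR1 and QCR2 were close to each other, with 2813 and 3197 counts for COR1 and 2334 and 2736 counts for QCR2, giving log2 fold changes of 0.35 (0.28 to 0.43) and 0.40 (0.32 to 0.48). Among the small subunits, QCR6 had 1644 and 1809 counts, QCR7 1745 and 1867, QCR9 895 and 921, and QCR10 574 and 630. Their log2 fold changes lay between 0.21 and 0.31, and their intervals overlap one another. QCR8, the most abundant subunit per length in both libraries (RPKM 167 and 172), was the lowest in change, with 1585 and 1479 counts and a log2 fold change of 0.07 (-0.03 to 0.17). RIP1 and QCR8 differed by 0.49 (0.31 to 0.66).

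Complex IV was likewise higher in all 7 nuclear subunits followed, from 0.18 to 0.56, with a median of 0.33 and with every counting interval above 0. COX4, a zinc-binding subunit, had 1122 counts in WT against 1470 in cdc55Δ, giving a log2 fold change of 0.56 (0.45 to 0.67). COX13 had 1452 and 1737 counts and COX7 had 728 and 871 counts, with log2 fold changes of 0.43 (0.33 to 0.53) and 0.43 (0.28 to 0.57). COX9, with 1210 and 1357 counts, and COX12, with 733 and 788, came next. COX9 was at 0.33 (0.22 to 0.45) and COX12 at 0.27 (0.13 to 0.42). COX8 had 979 and 993 counts and COX6 had 1637 and 1648, and they were the lowest, at 0.19 (0.06 to 0.32) and 0.18 (0.08 to 0.28), and COX4 exceeded COX6 by 0.38 (0.23 to 0.53). The order of COX13, COX7, COX9 and COX12 is not set within counting error. COX9 was the most abundant per length, at RPKM values of 202 in WT and 250.2 in cdc55Δ.

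COX4 and COX13 are both neighbours of the deleted gene on chromosome VII. COX13 (144808 to 145197, plus strand) ends 611 bases from CDC55 (145809 to 147389, minus strand), and COX4 (149704 to 150171, minus strand) lies 2314 bases beyond its other side. Other genes near the deletion did not share one direction. RPS26A, which is closest on the COX4 side, had a log2 fold change of 0.04, YGL188C-A, between RPS26A and COX4, one of -0.30, TPN1, beyond COX4, one of 0.15, and HOS2, beyond COX13, one of -0.02. YGL185C, beyond TPN1, had a log2 fold change of 0.16. On the COX13 side, YGL193C had one of -0.01 and YGL194C-A, beyond HOS2, one of -0.48. IME4, next to COX13, had only 9 counts in WT and 2 in cdc55Δ, and a log2 fold change of -1.78. Any part of the deleted locus in the values of COX4 and COX13 was not tested. Without both genes, the 5 other subunits of complex IV ranged from 0.18 to 0.43.

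Of the 6 groups of members, ATP synthase had the narrowest range. Its 12 subunits spanned only 0.34 on the log2 scale, from -0.08 for ATP14 to 0.26 for ATP18, with a median of 0.17, and 11 of them were above 0. ATP1, the alpha subunit, had 5408 counts in both libraries, and ATP2, the beta subunit, had 12924 in WT and 12874 in cdc55Δ, which after scaling gave log2 fold changes of 0.17 (0.11 to 0.22) and 0.16 (0.13 to 0.20). ATP1 and ATP2 differed by 0.01 (-0.06 to 0.07), and the RPKM of ATP1 stayed at 0.392 and 0.394 of that of ATP2. Equal counts give a positive log2 fold change here, since the cdc55Δ library is the smaller one. The central stalk subunits ATP3 (gamma), ATP16 (delta) and ATP15 (epsilon) had log2 fold changes of 0.09, 0.03 and 0.17. In the peripheral stalk, ATP4, ATP5 and ATP7 had values of 0.13, 0.19 and 0.21. ATP14, subunit h of that stalk, had 1105 and 931 counts and a log2 fold change of -0.08 (-0.21 to 0.05). The small membrane subunits ATP17, ATP18 and ATP20 had values of 0.03, 0.26 and 0.17. For ATP14, ATP16 and ATP17 the counting interval holds 0, and the sign of ATP16 and ATP17 turned under upper-quartile scaling.

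**Figure D2:**
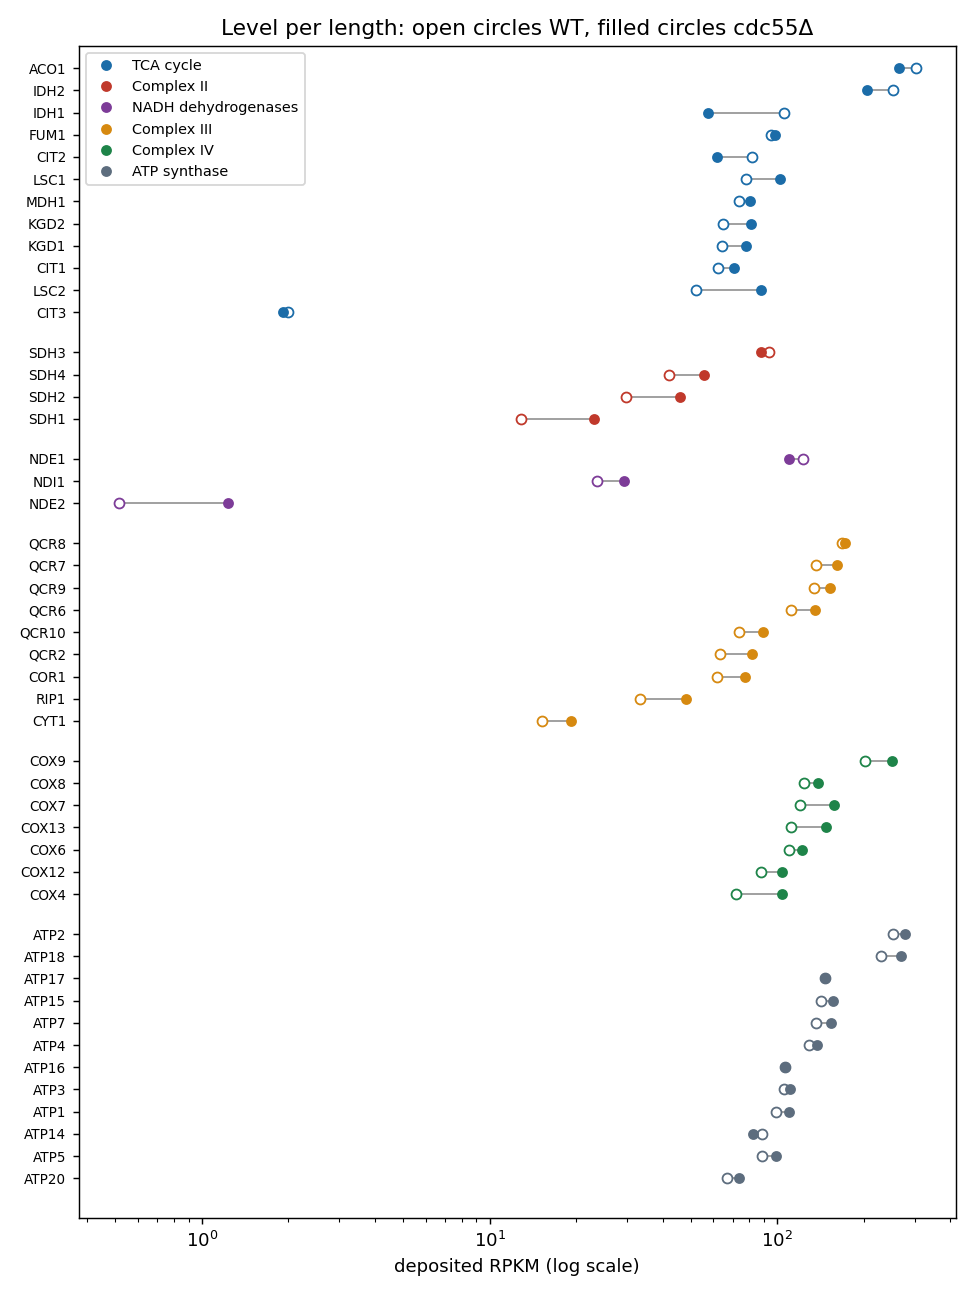
Deposited RPKM on a log axis for each gene, with open circles for WT and filled circles for cdc55Δ, 1 library each. Complexes IV and V (ATP synthase) kept every subunit between 66.8 and 278 in both libraries, whereas complex II ran from 12.9 to 93.5 in WT, and CIT3 and NDE2 had the lowest levels of the 47 genes.

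The levels per length describe the groups within a library. They rest on the listed coding lengths, from 180 bases for COX9 and ATP18 to 3045 for KGD1. An effect of such lengths on RPKM was not tested, so ranks between short and long genes are uncertain. In WT the median RPKM was 117 over ATP synthase, 112 over complex IV, 73.8 over complex III, 75.9 over the TCA cycle and 36.0 over complex II. In cdc55Δ these medians were 124, 139, 89.3, 80.7 and 50.8, so complex IV exceeded ATP synthase there. ATP2 and ATP18 had the highest levels in cdc55Δ, with RPKM values of 278 and 269.5, and ACO1, with 265 there, led in WT with 303. Since RPKM corrects for the library total only, a log2 fold change from it is 0.03 below that from TMM.

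**Figure D3:**
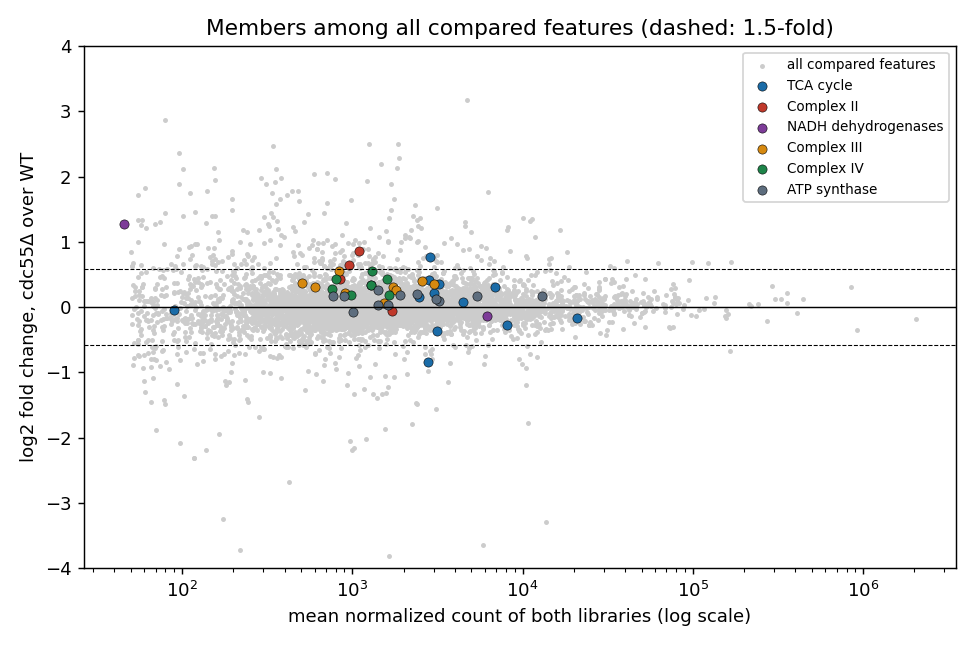
Log2 fold change of cdc55Δ over WT against the mean normalized count (log axis) for the 5705 compared features in grey and the 47 genes in colour, NDE2 included; dashed lines mark 1.5-fold, and 2 features, CDC55 and a tRNA gene, lie below the axis. SDH1, LSC2 and SDH2 lie above the upper line and IDH1 below the lower one.

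The other genes of the pathway were taken from 9 lists of related genes, of which 106 genes were measured and 105 compared. Of these, 6 rose and 3 fell past 1.5-fold, close to the background of 5.17% higher and 2.96% lower, and the median over the 106 was 0.05. The genes listed here as assembly factors were divided between higher and lower. These lists are broad and include genes for the expression of mitochondrially encoded subunits. Over 59 assembly factors the median was -0.01, with 27 above 0 and 32 below, 1 past 1.5-fold each way. It was -0.02 over the 31 for complex IV, from COX17, a copper chaperone, at -0.56 to SHY1 at 0.52. Over the 11 for complex III the median was -0.01, with CBS1 lowest at -0.48 and CYC3, the heme lyase of cytochrome c, highest at 0.53, and over the 13 for ATP synthase it was 0.03, with NCA3 lowest and ATP22 highest at 0.14. NCA3 had 124 counts in WT against 39 in cdc55Δ, giving a log2 fold change of -1.49 (-2.06 to -0.97). The 4 assembly factors for complex II had a median of 0.31. Of them SDH6 rose from 149 to 240 counts, with 0.85 (0.56 to 1.16), and SDH7 was the lowest with -0.23.

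The remaining subunits and electron carriers included isoforms that differ in oxygen response. COX5B, the isoform of subunit V made under low oxygen, rose from 1409 to 2612 counts, giving a log2 fold change of 1.06 (0.96 to 1.15), while COX5A, its aerobic counterpart, had 1288 and 1318 counts and a value of 0.20 (0.09 to 0.31). CYC7, the low-oxygen cytochrome c, rose from 36 to 77 counts, with 1.25 (0.68 to 1.88), and CYC1, the aerobic form, had 597 and 398 counts and a value of -0.42 (-0.60 to -0.23). COX26 rose with 0.92 (0.51 to 1.34). Among the isozymes of the cycle, YJL045W, a minor form of the succinate dehydrogenase flavoprotein, rose from 39 to 81 counts, with 1.21 (0.65 to 1.81). SHH3, a relative of SDH3, had 13 and 28 counts and was below the minimum. The 8 genes of pyruvate dehydrogenase and the enzymes around it lay between -0.14 for PDB1 and 0.17 for PYC2, with a median of 0.07. The 11 genes of ubiquinone synthesis had a median of 0.15, from COQ2 at -0.07 to COQ11, which rose from 595 to 867 counts, with 0.71 (0.56 to 0.86). The mitochondrially encoded subunits were not analysed here.

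Of 12 genes for known regulators, 2 fell past 1.5-fold and none rose past it, beside 2.96% and 5.17% of all compared features. HAP4, the limiting activator subunit of the Hap complex, fell from 912 counts in WT to 533 in cdc55Δ, giving a log2 fold change of -0.61 (-0.76 to -0.45), while HAP2, HAP3 and HAP5, which bind DNA, had values of 0.29 (0.01 to 0.57), -0.17 (-0.38 to 0.05) and 0.14 (-0.11 to 0.39). ROX1, the repressor of genes of low oxygen, fell from 926 to 476 counts, with -0.79 (-0.95 to -0.63), and HAP1, the heme-dependent activator, had 3779 and 4851 counts and a value of 0.53 (0.47 to 0.59). Whether the HAP1 allele of BY4741 makes a working activator was not examined. In the retrograde pathway, RTG1 and RTG3, which encode the DNA-binding factors, had values of -0.18 (-0.30 to -0.06) and -0.15 (-0.29 to -0.01). RTG2, their upstream activator, had one of 0.20 (0.13 to 0.27), and MKS1, the inhibitor, one of -0.24 (-0.37 to -0.11). CAT8, an activator of genes for growth without glucose, and MOT3, a repressor, had values of 0.30 (0.00 to 0.60) and 0.42 (0.24 to 0.60). The median over the 12 regulators was 0.00.

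**Figure D4:**
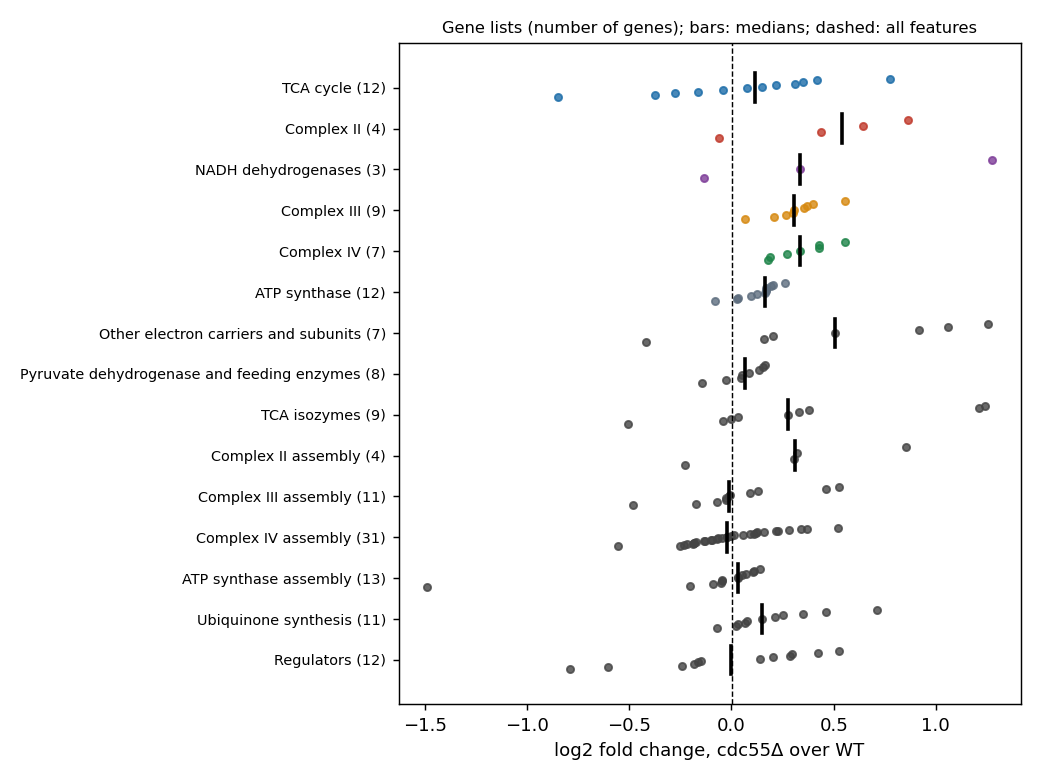
Log2 fold change of cdc55Δ over WT for each gene of the 6 groups of members (coloured) and of the 9 related lists (grey), with the number of genes in parentheses; black bars are medians and the dashed line is the median of all compared features, 0.00. The medians of complexes II, III and IV, from 0.31 to 0.54, and that of ATP synthase, 0.17, stand beside medians of 0.31, -0.01, -0.02 and 0.03 for the assembly factors of complexes II, III and IV and of ATP synthase.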

How the data were processed

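The strains, culture and library steps are those given by the labels and the study's methods. The authors removed rRNA, prepared directional libraries, demultiplexed with Cutadapt and aligned with hisat2 against the S288C genome. The submitters' processing notes also name featureCounts. The strand setting and the handling of reads with several sites are not given in the sources used here. The authors deposited whole-number counts per transcript, RPKM values, which equal the count divided by the listed length and the library total, and TPM values, which were not used. The lengths of all 47 genes equal their R64 coding lengths, and none overlaps another annotated gene.

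Effective library sizes came from TMM in edgeR 4.0.16 (R 4.3.3). Fold changes and intervals were computed in Python 3.11.15 with SciPy 1.17.1. They were checked on counts simulated with known fold changes and counting error only. That check concerns the code and not the error between cultures. With 1 library per strain no p-value is given. Intervals for differences between genes are from the log odds ratio of the counts. The alternatives were DESeq2 1.42.0 size factors, library size, upper-quartile, mRNA-only TMM and iterated DEGES scaling (3 rounds), a prior count of 5, a 2-fold threshold, count minimums of 0 and 1000 and mRNA features only.

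The members and lists were chosen with earlier results of these data known. Every member and regulator is named, and in each related list the genes past 1.5-fold and the highest and lowest, except 1 gene that is not reported here. The pairs of genes, the comparisons by sign and by counting interval and the genes around CDC55 were chosen after their values were seen.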

Additional observations from a re-analysis of the deposited data

How the results depend on the processing

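The choice of scaling adds 1 constant to all log2 fold changes, from -0.04 with upper-quartile scaling to 0.00 with iterated DEGES scaling. No median of the 6 groups of members changed sign under the 5 other scalings or a prior count of 5, and that of all members stayed between 0.17 and 0.21. Of the 9 related lists, the median changed sign for the ATP synthase assembly factors, to -0.01 under upper-quartile scaling, and for the regulators, to 0.00 (0.00075) under iterated DEGES scaling. ATP16 and ATP17 changed sign under upper-quartile scaling, to -0.01 for both, and ATP17 also under library size only, at -0.00. Upper-quartile scaling took ACO1 to -0.21 and ATP2 to 0.12, beyond their counting intervals. With a 2-fold threshold, 0 members were higher and 0 lower, and the share of all features was 1.91% higher and 1.03% lower. Without a count minimum, 4 members were at least 1.5-fold higher and 1 lower, beside 6.46% and 5.70% of the features. With a minimum of 1000 normalized counts, 2 members were higher and 1 lower, beside 3.53% and 1.78%. These shares were computed over more and over fewer features. No paired analysis was possible because each strain has 1 library, and no replicate could be left out. The spread between cultures was not measured, so the intervals are lower limits of the error.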
